A study of Mus musculus with 12 samples.

Results

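The 9 genes described here are products of neutrophils, the short-lived granulocytes that enter injured tissue first: the calprotectin subunits S100a8 and S100a9, the granule and cytosolic proteins Ngp, Retnlg and Stfa2l1, and the surface receptors Cd177, Trem1, Csf3r and Cxcr2. They were chosen by symbol, 9 of 24421 gene symbols in the files, with the transcript of the highest total count where a symbol had several. RNA was sequenced from whole kidneys of male C57BL/6 mice at 6 weeks of age, in 4 groups of 3 libraries. The baseline groups were WT mice and mice labelled Tet2-/-, both healthy controls without an operation. The IR groups were WT mice and mice labelled Tet2-/- whose right renal pedicle was clamped for 60 min, with the left kidney removed, and whose kidney was taken 24 h after reperfusion. The study's Tet2-/- mice lack Tet2, a dioxygenase that oxidises 5-methylcytosine in DNA, in the whole body, blood cells included. No library from sham-operated mice was analysed here, so the IR effect holds surgery and the removal of the other kidney as well as ischemia. The labels name no batch and do not say that each library came from its own mouse, so the p-values measure the spread between these libraries.

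Neutrophils mature in the bone marrow, filling primary, then secondary, then tertiary granules, and leave it under the growth factor G-CSF. They follow CXC chemokines through Cxcr2 into tissue and reach a kidney within hours of reperfusion. Calprotectin, the S100a8 and S100a9 heterodimer, is the most abundant protein of the neutrophil cytosol, and it binds calcium, zinc and manganese and, once released, the receptor Tlr4.

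Levels are given as FPKM, fragments per kilobase of transcript scaled to the mapped reads of the library, which the authors deposited beside the read counts. The library totals ran from 51007366 to 64130606.5 counts in WT IR kidneys and from 68893909.5 to 94522010.5 in the IR kidneys labelled Tet2-/-, and from 52881804.5 to 107969888 at baseline, so a rare transcript was read less deeply in WT IR kidneys than in the IR kidneys labelled Tet2-/-. Tet2 stood at 9.15, 6.25 and 7.33 FPKM in WT baseline libraries and at 9.25, 16.6 and 10.3 in baseline libraries labelled Tet2-/-, which were not lower (log2 difference 0.76, SE 0.24, edgeR adjusted p = 0.321). After IR it stood at 9.34, 3.97 and 3.86 in WT and at 2.64, 3.20 and 1.76 in libraries labelled Tet2-/- (log2 difference −1.28, SE 0.36, edgeR adjusted p = 0.0690). Reads per exon were not analysed here, and the genotype is given as labelled throughout. The tissue was kidney in every library: 8 kidney markers, among them the phosphate transporter Slc34a1 and uromodulin (Umod), summed to between 16995 and 52942 FPKM. Most of this sum was 1 gene, Kap, at 13868 to 49842 FPKM. Slc34a1 read 188 to 1811 and Umod 354 to 2512.

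All 9 transcripts overlapped their annotated gene on mm9. S100a8 (NM_013650) spans chr3:90472993-90473956 on the plus strand and S100a9 (NM_001281852) spans chr3:90496552-90499643 on the minus strand, with 22595 bases between them. Stfa2l1 (NM_173869, chr16:36156897-36162034) and Retnlg (NM_181596, chr16:48872721-48874611) share chromosome 16. Ngp (NM_008694) is at chr9:110322312-110325516, Cd177 (NM_026862) at chr7:25529002-25545330, Trem1 (NM_021406) at chr17:48371903-48386091, Csf3r (NM_007782) at chr4:125701903-125722219 and Cxcr2 (NM_009909) at chr1:74200568-74207820. Stfa2l1 belongs to a family of near copies: its transcript matched that of Stfa2 at 96.9% of 414 aligned bases, so its reads could be shared with other stefins and its values are uncertain to that extent. A stretch of 273 bases of Cd177 matched BC049730 at 95.6%.

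The 4 genes taken here were those whose lowest IR library labelled Tet2-/- stood the most times above the highest WT IR library in FPKM. The 250 bases before the start of each are printed. They are RefSeq sequences of GRCm38.p6, read 5′ to 3′ along the gene, and all 9 genes had one. Capitals mark 3 short motifs: the core of C/EBP sites (TTGCNNAA on either strand), the purine box read by PU.1 (GAGGAA on either strand) and the TATA box (TATAAA on the sense strand). C/EBP factors and PU.1 are known for driving granulocyte genes.
S100a8: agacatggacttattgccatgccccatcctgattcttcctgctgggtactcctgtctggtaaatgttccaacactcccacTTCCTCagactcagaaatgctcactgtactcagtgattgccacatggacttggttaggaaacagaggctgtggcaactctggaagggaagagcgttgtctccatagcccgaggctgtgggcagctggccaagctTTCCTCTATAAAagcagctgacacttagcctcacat
S100a9: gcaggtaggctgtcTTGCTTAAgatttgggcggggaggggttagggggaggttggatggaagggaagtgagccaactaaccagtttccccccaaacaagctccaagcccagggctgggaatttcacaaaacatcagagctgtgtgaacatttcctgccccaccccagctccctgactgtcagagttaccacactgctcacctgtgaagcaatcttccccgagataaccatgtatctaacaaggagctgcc
Retnlg: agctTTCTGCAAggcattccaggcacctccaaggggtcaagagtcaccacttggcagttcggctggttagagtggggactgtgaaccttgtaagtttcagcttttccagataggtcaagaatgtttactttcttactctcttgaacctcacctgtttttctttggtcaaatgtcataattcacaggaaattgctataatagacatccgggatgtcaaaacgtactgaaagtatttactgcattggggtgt
Stfa2l1: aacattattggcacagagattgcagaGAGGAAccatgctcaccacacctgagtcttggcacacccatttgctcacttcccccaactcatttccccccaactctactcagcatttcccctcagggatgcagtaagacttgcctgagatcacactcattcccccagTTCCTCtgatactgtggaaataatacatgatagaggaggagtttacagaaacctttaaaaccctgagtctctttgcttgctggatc
The S100a8 sequence holds the purine box at 170 and 36 bases before the start and the TATA box at 30, the S100a9 and Retnlg sequences hold the C/EBP core at 236 and at 246, and Stfa2l1 holds the purine box at 224 and 86. Over all 9 genes, 3 had the C/EBP core, 6 the purine box and 2 the TATA box, against 9.56%, 23.3% and 7.59% of 32851 RefSeq promoters of the same length. These are matches of letters in a short window and not measured binding.

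S100a8 and S100a9 had the highest mean FPKM of the 9 genes in every group. In whole kidney, fewer cells of a type and less RNA per cell cannot be told apart. S100a8 read 0.708, 0.287 and 0.814 FPKM in WT baseline libraries and 0.776, 0.712 and 0.576 in baseline libraries labelled Tet2-/-. After IR it read 1.77, 3.29 and 2.32 in WT and 47.2, 46.6 and 27.4 in libraries labelled Tet2-/-. Every IR library labelled Tet2-/- lay above every other library, and the lowest of them was 8.31 times the highest WT IR library. The group means after IR were 40.4 ± 11.3 against 2.46 ± 0.773 FPKM (SD, n = 3 each). S100a9, its partner subunit, read 1.36, 0.146 and 1.03 FPKM in WT baseline libraries and 0.759, 1.43 and 1.07 in baseline libraries labelled Tet2-/-. After IR it read 1.87, 4.99 and 3.21 in WT and 65.0, 59.2 and 33.1 in libraries labelled Tet2-/-. The IR groups again did not overlap, and the third IR library labelled Tet2-/- was the lowest of its group for both subunits. The ratio of S100a9 to S100a8 in FPKM was 1.21 to 1.38 in the IR libraries labelled Tet2-/- and 1.06 to 1.51 in WT IR libraries.

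The genotype difference after IR asked whether these genes stood higher or lower in injured kidneys labelled Tet2-/- than in injured WT kidneys. S100a8 was higher by 3.93 on the log2 scale (SE 0.32, edgeR adjusted p = 0.0089) and S100a9 by 3.85 (SE 0.41, edgeR adjusted p = 0.0104). Of the 16186 genes tested, 2.3% were called higher and 3.85% lower, and every library labelled Tet2-/- lay above every WT library for 17.5%. All 9 members were called higher, and for all 9 the libraries did not overlap. They were chosen with earlier results of these data known, so this count is a description and not a test. However, 4 of them (Ngp, Stfa2l1, Cd177 and Cxcr2) reached the count filter only through the higher group. Stfa2l1 and Cd177 were over it in 0 WT IR libraries, Ngp in 1 and Cxcr2 in 2. The fewer such libraries, the less a gene could have been tested without differing. The other 5 were over the filter in each WT IR library too.

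**Figure D1:**
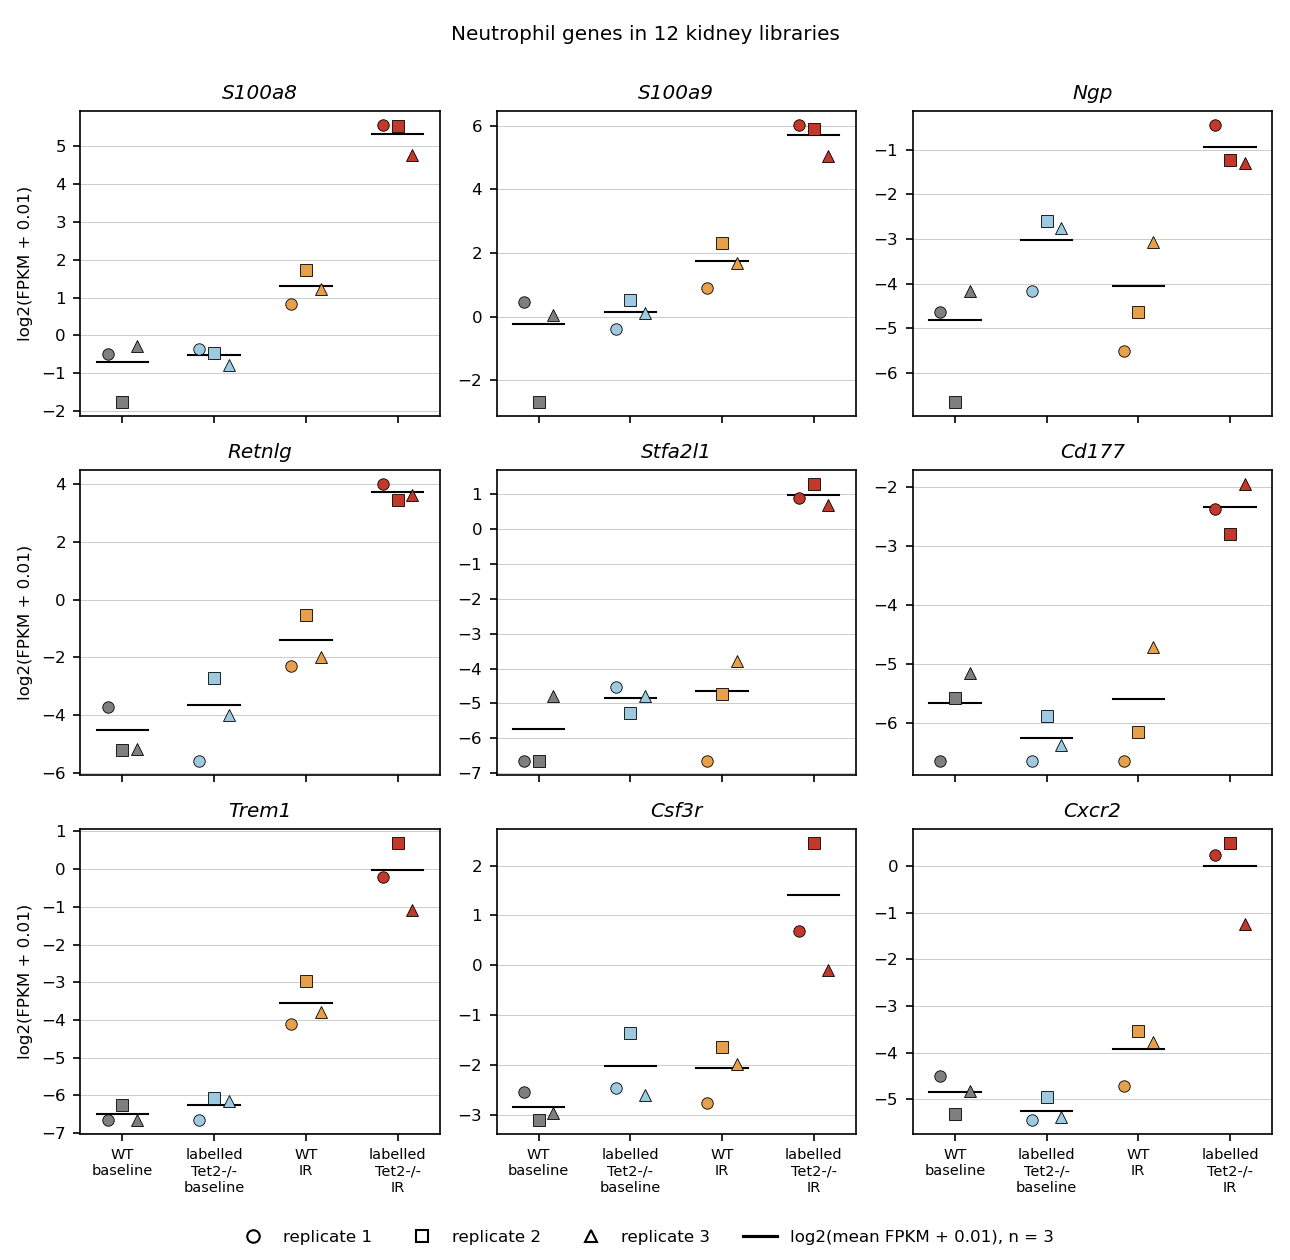
Levels of the 9 genes in the 12 libraries, 1 panel a gene, as log2(FPKM + 0.01) on the vertical axis with its own range in each panel; the points are libraries by replicate number and the bars the group means. In each panel the 3 IR libraries labelled Tet2-/- sit above the other 9; S100a8 reads 27.4 to 47.2 FPKM there and at most 3.29 elsewhere.

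The 3 granule and cytosolic genes covered a wide span of levels. Retnlg, a resistin-like protein made by myeloid cells, read 0.191, 0.680 and 0.243 FPKM in WT IR libraries and 15.9, 10.8 and 12.3 in IR libraries labelled Tet2-/-. No baseline library passed 0.143 FPKM. The lowest IR library labelled Tet2-/- was 15.9 times the highest WT IR library, and the log2 difference was 5.01 (SE 0.52, edgeR adjusted p = 0.0104). Without WT IR replicate 2, the highest of its group, that difference was 5.71. Stfa2l1, a stefin that inhibits cysteine proteases, read 0, 0.028 and 0.062 FPKM in WT IR libraries, which is at most 2 counts, and 1.85, 2.44 and 1.62 in IR libraries labelled Tet2-/-. Against a floor of 3 counts in each WT library this was at least 19.3-fold higher (edgeR adjusted p = 0.0112). Ngp, a protein of secondary granules, was the lowest of the 3 in IR kidneys labelled Tet2-/-. It read 0.012, 0.030 and 0.110 FPKM in WT IR libraries and 0.722, 0.414 and 0.399 in IR libraries labelled Tet2-/- (log2 difference 3.16, SE 0.75, edgeR adjusted p = 0.0450). Its baseline libraries labelled Tet2-/-, at 0.046, 0.155 and 0.138, overlapped the WT IR libraries.

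The 4 receptors were also higher in IR kidneys labelled Tet2-/-. Cxcr2, the receptor that draws neutrophils along CXC chemokines, read 0.028, 0.076 and 0.063 FPKM in WT IR libraries and 1.17, 1.40 and 0.414 in IR libraries labelled Tet2-/- (log2 difference 4.01, SE 0.59, edgeR adjusted p = 0.0148). Trem1, a receptor that amplifies inflammatory signals through the adaptor Tyrobp, read 0.048, 0.117 and 0.063 against 0.862, 1.61 and 0.461 (log2 difference 3.56, SE 0.55, edgeR adjusted p = 0.0169). Neither gene overlapped between the genotypes after IR, and in both the second library labelled Tet2-/- was highest and the third lowest. Csf3r, the receptor for G-CSF, read 0.137, 0.310 and 0.242 FPKM in WT IR libraries and 1.60, 5.47 and 0.921 in IR libraries labelled Tet2-/- (log2 difference 3.38, SE 0.68, edgeR adjusted p = 0.0296). Its second library labelled Tet2-/- stood 5.94 times above the third, the widest spread of any member in that group, and without it the difference was 2.39. Cd177, a surface glycoprotein of neutrophils that binds Pecam1, read 0, 0.004 and 0.028 FPKM against 0.182, 0.134 and 0.249 (log2 difference 3.92, SE 0.93, edgeR adjusted p = 0.0443). At 46.5 to 63.5 counts per library labelled Tet2-/- and at most 6 in WT, it was the rarest of the receptors.

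The calls were not equally firm. S100a8, S100a9, Retnlg, Stfa2l1 and Cxcr2 were called with each of the 6 libraries left out in turn. Trem1 lost its call without WT IR replicate 1 (edgeR adjusted p = 0.0595) and without replicate 3 (0.0542). Csf3r kept its call only without the second or the third library labelled Tet2-/-, with adjusted p up to 0.0975 in the other edgeR fits. Ngp and Cd177 kept theirs only without WT IR replicate 3, the library with the highest level of both in its group, where the log2 differences were 4.45 and 6.05, and reached adjusted p of 0.119 and 0.112 in the other edgeR fits. With an FPKM pseudocount of 1 in limma, 4 members were called.

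**Figure D2:**
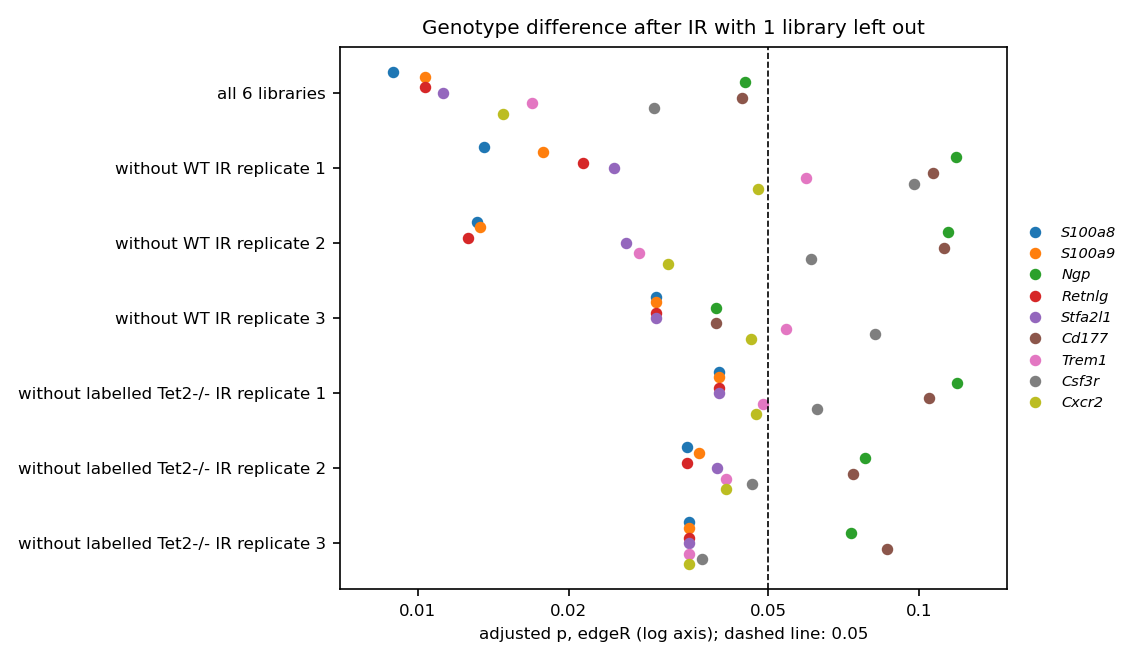
Adjusted p of each gene (horizontal, log axis) for the genotype difference after IR with all 6 libraries and with each left out (rows); the dashed line is 0.05. Points of S100a8, S100a9, Retnlg, Stfa2l1 and Cxcr2 stay left of the line in every row, while Ngp and Cd177 pass it in 5 of the 6 rows that leave a library out.

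Within each group the libraries kept a partial order. WT IR replicate 1 was the lowest of its group for 9 of 9 genes, and replicate 2 was the highest for 6 and replicate 3 for 3. Among IR libraries labelled Tet2-/-, replicate 3 was the lowest for 7 genes, replicate 2 for Retnlg and Cd177, and the highest place was shared by replicate 1 (4 genes), replicate 2 (4) and replicate 3 (1, Cd177). The spread from highest to lowest in that group was 1.47 times for Retnlg and 5.94 times for Csf3r, with the others between. Summed over the 9 genes, the libraries read 134, 128 and 76.8 FPKM in IR kidneys labelled Tet2-/-, 4.06, 9.53 and 6.34 in WT IR kidneys, and 0.586 to 2.87 at baseline. Calprotectin made up 78.7% to 83.4% of that sum in the first group and 86.9% to 89.7% in the second.

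The IR effect in WT kidneys compared injured with uninjured WT kidneys. Of 16015 genes tested, 1.46% were called higher and 0.887% lower, and every IR library lay above every baseline library for 14.8%. Only 4 members could be tested, 3 of them through the IR group, and 1 of them, Trem1, was called higher. It was listed at 0, 0.003 and 0 FPKM at baseline and was at least 6.77-fold higher after IR (edgeR adjusted p = 0.0276). The call was lost without any 1 of the 3 baseline libraries or of WT IR replicates 2 and 3, with an adjusted p up to 0.113. S100a8 was 1.94 higher on the log2 scale (SE 0.48, edgeR adjusted p = 0.0794) and S100a9 1.92 (SE 0.74, edgeR adjusted p = 0.185). In both, every IR library lay above every baseline library, and neither passed the threshold. DESeq2 called both (adjusted p = 0.0037 for S100a8 and 0.0498 for S100a9), with Trem1 and Retnlg, 4 members in all. Of the 10 alternatives that kept every library, S100a8 was called in 4 (DESeq2, all 12 libraries in 1 edgeR fit and limma with either offset) and S100a9 in 1. Trem1 was called in 7 of the 9 that tested it, and lost in both limma fits. Csf3r differed by 0.77 (SE 0.39, edgeR adjusted p = 0.301) and overlapped. Retnlg also lay higher in each WT IR library than in each baseline library, where it read 0.066, 0.017 and 0.018 FPKM, but its counts were too few for the edgeR test. Ngp, Stfa2l1, Cd177 and Cxcr2 overlapped between WT baseline and WT IR libraries. With the replicate number as a block, the genes called across the whole table went from 234 higher and 142 lower to 428 higher and 559 lower, and Trem1 stayed the only member called.

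The IR effect in kidneys labelled Tet2-/- took in all 9 members. Each was tested and called higher, against 12.7% of 16359 genes called higher and 11.6% lower, and for all 9 the IR libraries lay above the baseline libraries, as for 29.5% of genes. Only 3 members were over the filter at baseline, so the other 6 passed it through the IR group. S100a8 rose by 5.61 on the log2 scale (SE 0.28, edgeR adjusted p = 4.78e-05) and S100a9 by 5.29 (SE 0.34, edgeR adjusted p = 9.47e-05). Retnlg rose by 7.12 (SE 0.67, edgeR adjusted p = 0.000318), and by 8.46 without baseline replicate 2, its highest baseline library. Cxcr2 rose by 5.57 (SE 0.57, edgeR adjusted p = 0.000405) from 0.013, 0.022 and 0.014 FPKM. Trem1, Stfa2l1 and Cd177 had at most 3 counts in each baseline library and were at least 78.6-fold, 21.9-fold and 14.1-fold higher. Csf3r rose by 3.18 (SE 0.68, edgeR adjusted p = 0.00833), and by 2.21 without IR replicate 2. Ngp moved least, by 1.87 (SE 0.52, edgeR adjusted p = 0.0223), and was not called without baseline replicate 1 or 3 or IR replicate 1 (edgeR adjusted p up to 0.0728). When libraries were scaled by their totals instead of by TMM, 67.2% of the calls over all genes were higher instead of 52.3% and the median of all genes moved from 0.04 to 0.27. Each member's difference was well above that shift.

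**Figure D3:**
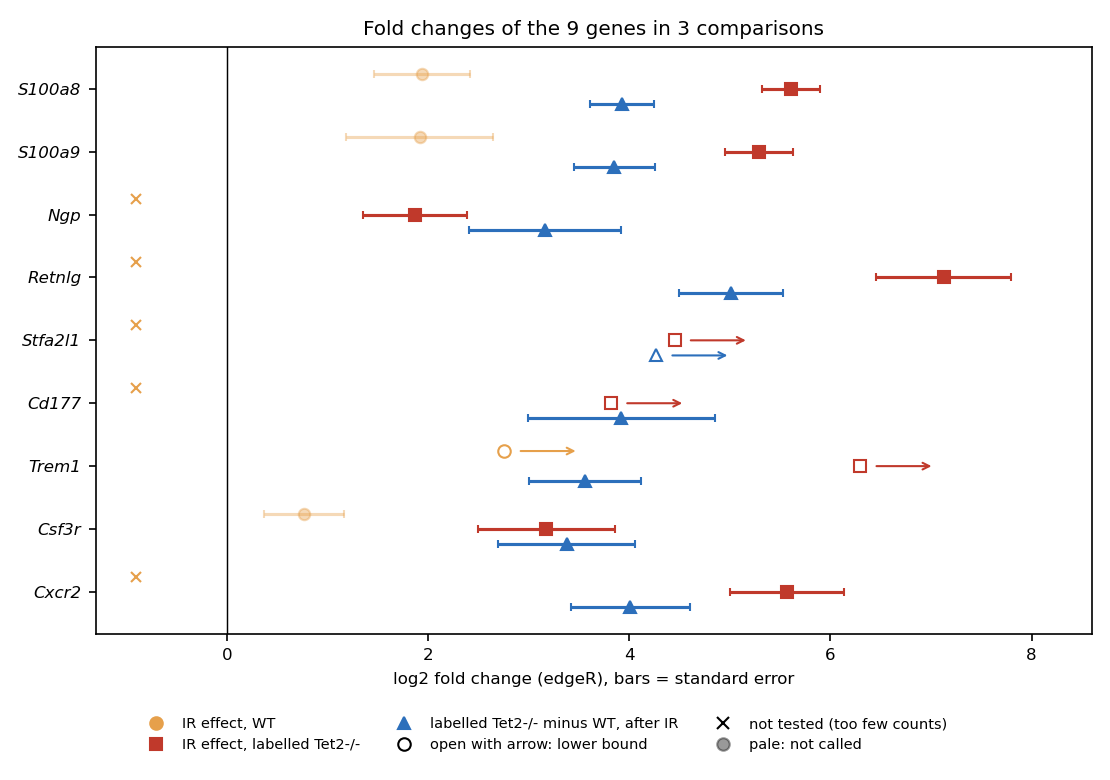
Log2 fold changes of the 9 genes (rows) in the IR effect in WT kidneys, the IR effect in kidneys labelled Tet2-/- and the genotype difference after IR; bars are standard errors, open symbols with arrows lower bounds, crosses genes with too few counts to test. The comparisons share libraries. S100a8 reads 1.94, 5.61 and 3.93 in the 3 comparisons.

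At baseline the genotypes could be compared for 3 members, and 0 were called, against 0.0124% of 16086 genes called higher and 0% lower. S100a8 differed by 0.26 (SE 0.44, edgeR adjusted p = 0.803), S100a9 by 0.47 (SE 0.66, adjusted p = 0.767) and Csf3r by 0.96 (SE 0.42, adjusted p = 0.429). None of the 3 passed an unadjusted p of 0.05 in edgeR, and DESeq2 called 0 as well. In scaled counts every Csf3r library labelled Tet2-/- lay above the WT libraries, as for 7.93% of genes, but its FPKM overlapped. The S100a8 and S100a9 libraries overlapped, and WT baseline replicate 2 was the lowest of the 6 for both; without it the differences were −0.078 and −0.029. The other 6 members had 0 to 27 counts per library in uninjured kidneys and were under the count filter. Without the filter all 9 could be tested and 0 were called. Ngp and Csf3r then had an unadjusted p of 0.0299 and 0.0470 in edgeR. Ngp read 0.030, 0 and 0.046 FPKM in WT and 0.046, 0.155 and 0.138 in libraries labelled Tet2-/-, a log2 difference of 2.26 (SE 0.87, edgeR adjusted p = 0.418).

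The test of the difference between the IR effects used all 12 libraries. Of 16741 genes, 3.79% had a higher and 5.39% a lower IR effect in kidneys labelled Tet2-/-. Scaled by library totals, 61.7% of these calls were higher instead of 41.3%, and the median of all genes was 0.24 instead of 0.10. The IR effect was larger in kidneys labelled Tet2-/- for S100a8 by 3.70 (SE 0.53, edgeR adjusted p = 0.00409), for S100a9 by 3.41 (SE 0.82, edgeR adjusted p = 0.0289) and for Cxcr2 by 4.43 (SE 0.79, edgeR adjusted p = 0.00913). Cxcr2 had at most 20 counts in each of the other 9 libraries and was over the count filter in 0 baseline libraries, so it was tested here through its high group, the IR group labelled Tet2-/-. S100a8 and Cxcr2 were called with each of the 12 libraries left out, and S100a9 in 5 of the 12, with adjusted p up to 0.0710. The 7 libraries without which it was lost were replicates 1 and 3 of both baseline groups and of WT IR, and replicate 1 of the IR group labelled Tet2-/-. With the replicate block the genes called over the whole table went from 634 higher and 902 lower to 1024 and 1077, S100a9 was not called (edgeR adjusted p = 0.0552) and Csf3r was (2.29, SE 0.53, edgeR adjusted p = 0.0279, against 2.44 and 0.0858 without the block). For Retnlg (edgeR adjusted p = 0.0779), Cd177 (0.0714), Stfa2l1 (0.193), Trem1 (0.50) and Ngp (0.674) the difference between the effects did not pass the threshold. Retnlg passed it without WT IR replicate 2 (edgeR adjusted p = 0.0379), Cd177 without WT IR replicate 3 (0.0403) and Csf3r without IR replicate 3 labelled Tet2-/- (0.0405).

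Related neutrophil genes were followed through a list of 43, grouped by granule class, surface, stefin family, and ligands and partners of the members. After IR, 31 could be tested and 12 had too few counts. Of the 31, 11 were called higher in kidneys labelled Tet2-/- and 0 lower, against 2.3% and 3.85% of all genes tested. Rare genes among the 31 could pass the filter through 1 group alone. Of those called, Fpr1, Clec4d, Clec4e, Mmp8 and Gm5483 did so, through the group labelled Tet2-/-. The median log2 difference of the 31 was 2.32, beside 0.04 over all genes tested. In the ligand and partner class, 2 of 12 were called. These were Itgam, the integrin chain CD11b (2.89, SE 0.65, edgeR adjusted p = 0.0391), and Ppbp, a CXC chemokine stored in platelets (2.72, SE 0.45, edgeR adjusted p = 0.0192). Of the other ligands of Cxcr2 on the list, Cxcl1, Cxcl2, Cxcl3 and Cxcl5, none passed the threshold between genotypes. Cxcl2 read 0.281, 1.73 and 0.810 FPKM in WT IR libraries and 2.30, 6.37 and 5.73 in IR libraries labelled Tet2-/-, without overlap (2.27, SE 0.67, edgeR adjusted p = 0.0774). Cxcl3 did not overlap either, with 0.036, 0.125 and 0.226 against 0.436, 0.940 and 2.38 FPKM (3.18, SE 0.91, edgeR adjusted p = 0.0703). Cxcl1 differed by −0.076 and overlapped (edgeR adjusted p = 0.955). Cxcl5 differed by 0.81 (edgeR adjusted p = 0.524), and Csf3, the ligand of Csf3r, by 1.66 (edgeR adjusted p = 0.209).

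The mature surface genes held most of the calls, though Fpr1, Clec4d and Clec4e among them reached the count filter only through the higher group. Here 6 of 9 tested genes were higher: the formyl peptide receptors Fpr1 (log2 difference 4.35) and Fpr2 (3.70), the decoy receptor Il1r2 (4.78), the C-type lectins Clec4d (4.44) and Clec4e (3.87), and the Fc receptor Fcgr4 (2.51). Il1r2 read 0.097, 0.182 and 0.048 FPKM in WT IR libraries and 3.42, 3.15 and 3.04 in IR libraries labelled Tet2-/-, within a narrow range in the second group. Ly6g, the surface protein that defines mouse neutrophils, read 0.024, 0.006 and 0.056 against 0.320, 0.157 and 0.150. Its libraries did not overlap, and the difference of 2.69 did not pass the threshold (SE 0.88, edgeR adjusted p = 0.0971). Of the stefins, 2 of 7 could be tested, and they pointed in opposite directions. Gm5483 was higher (3.32, SE 0.54, edgeR adjusted p = 0.0181). 2010005H15Rik had a log2 difference of −2.22 that did not pass the threshold (SE 0.59, edgeR adjusted p = 0.0605), and each library labelled Tet2-/- lay below each WT library, as it did at baseline.

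The granule classes differed in what could be measured. Of the primary granule genes, which are transcribed in marrow precursors, Mpo was listed at 0 in the 3 WT IR libraries and at 0.009, 0.023 and 0.004 FPKM in those labelled Tet2-/-. Elane stood at 0.029 FPKM or less in every library and Ctsg at 0. For this class 0 of 2 tested genes were called (edgeR adjusted p = 0.907 for Prtn3; Prss57 had an adjusted p of 0.0450 but a difference of 0.83, under the fold threshold). Of the secondary granule genes 1 of 4 was called, the collagenase Mmp8, which read 0.012, 0.080 and 0.023 FPKM in WT IR libraries and 1.60, 1.21 and 0.817 in those labelled Tet2-/- (4.87, SE 0.68, edgeR adjusted p = 0.0131). Lcn2, made by injured tubule cells as well as by neutrophils, read 74.2, 476 and 158 against 1923, 1849 and 908 and did not pass the threshold (2.64, SE 0.66, edgeR adjusted p = 0.0502). Of the tertiary granule genes 1 of 2 was called, the gelatinase Mmp9 (4.10, SE 0.73, edgeR adjusted p = 0.0218).

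**Figure D4:**
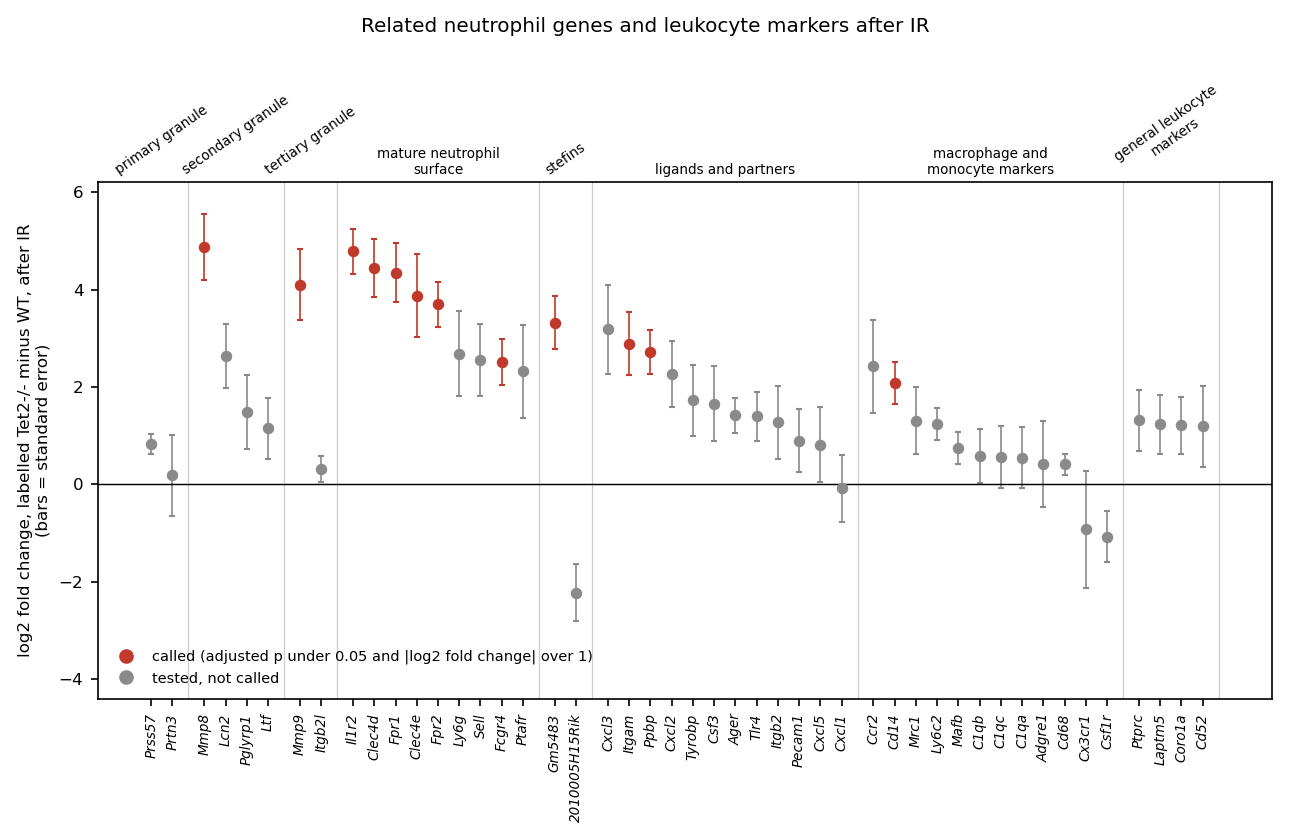
Log2 difference between IR kidneys labelled Tet2-/- and WT IR kidneys (vertical, bars are standard errors) for the tested genes of 6 neutrophil classes and 2 classes of leukocyte markers; red points were called. The called points gather in the mature surface class, 6 of 9, while none of the 4 general leukocyte genes was called. Fpr1, Clec4d and Clec4e among the 6 reached the count filter only through the higher group. The difference between classes was not tested.

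Against baseline, in WT kidneys 21 of the 43 could be tested and 1 was called, Lcn2 (6.17, SE 0.76, edgeR adjusted p = 0.0135). Over all genes 1.46% were called higher and 0.887% lower. The median of the 21 was 0.13 beside −0.03 for all genes. In kidneys labelled Tet2-/- 31 were tested, 23 were higher and 0 lower, against 12.7% and 11.6% of all genes. The median of the 31 was 2.79 beside 0.04 for all genes. Rare genes among the 31 could pass the filter through the IR group alone. With the 3 genes that had at most 3 counts in each baseline library set at their lower bound, the median was 2.56. Among the genes called, Prtn3 of the primary granules rose by 2.79, Lcn2 by 9.13 and Mmp9 by 4.31. The surface lectin Clec4d rose by 7.02, from at most 6.5 counts in each baseline library. The 3 genes with at most 3 baseline counts were the stefins BC100530 and Gm5483, at least 5.41-fold and 10.3-fold higher, and Cxcl3, at least 35.6-fold. Some ligands of Cxcr2 and of Csf3r rose in the same kidneys: Cxcl5 by 5.45, from at most 4 counts in each baseline library, Cxcl2 by 4.60 and Csf3 by 3.07. In WT kidneys Cxcl2 differed by 2.89 without overlap and was not called (SE 0.70, edgeR adjusted p = 0.0767). Cxcl5 and Csf3 could not be tested in WT kidneys, where Cxcl5 was at least 10.3-fold higher after IR. In kidneys labelled Tet2-/- Cxcl1, the most abundant Cxcr2 ligand on the list, differed by 0.47 and was not called (SE 0.19, edgeR adjusted p = 0.0758). It read 19.9, 25.5 and 22.5 FPKM after IR and up to 17.5 at baseline. At baseline 20 were tested and 0 were called between genotypes in edgeR, with 4 at an unadjusted p under 0.05. Of these 4, 2010005H15Rik (−2.97, edgeR adjusted p = 0.242), Tlr4 (−1.26, 0.309) and Pecam1 (−0.72, 0.404) were on the lower side in libraries labelled Tet2-/- and Cxcl1 (0.91, 0.423) on the higher side. None of these comparisons is independent of the members' own, since they use the same libraries.

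Markers of other cells were read in the same libraries. The 4 general leukocyte genes (Ptprc, Cd52, Laptm5 and Coro1a) summed to 11.9, 8.01 and 3.51 FPKM in WT IR libraries and 12.6, 40.2 and 6.39 in IR libraries labelled Tet2-/-. These sums overlapped, the second library labelled Tet2-/- stood apart, and 0 of the 4 genes was called (log2 differences 1.19 to 1.32). The sum of the members over the sum of these leukocyte genes was 10.7, 3.19 and 12.02 in IR libraries labelled Tet2-/-, 0.341, 1.19 and 1.81 in WT IR libraries and 0.0704 to 0.303 at baseline. The third IR library labelled Tet2-/- had 76.8 FPKM of the members at a leukocyte level inside the WT IR range. Without the second library labelled Tet2-/- the differences were 3.87 for S100a8, 3.81 for S100a9, 5.17 for Retnlg and 3.74 for Cxcr2, all called, as were Stfa2l1, Trem1 and Csf3r, the last at 2.39 in place of 3.38. Ngp and Cd177 were not called without it (edgeR adjusted p = 0.0779 and 0.0740), which left 7 of the 9.

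**Figure D5:**
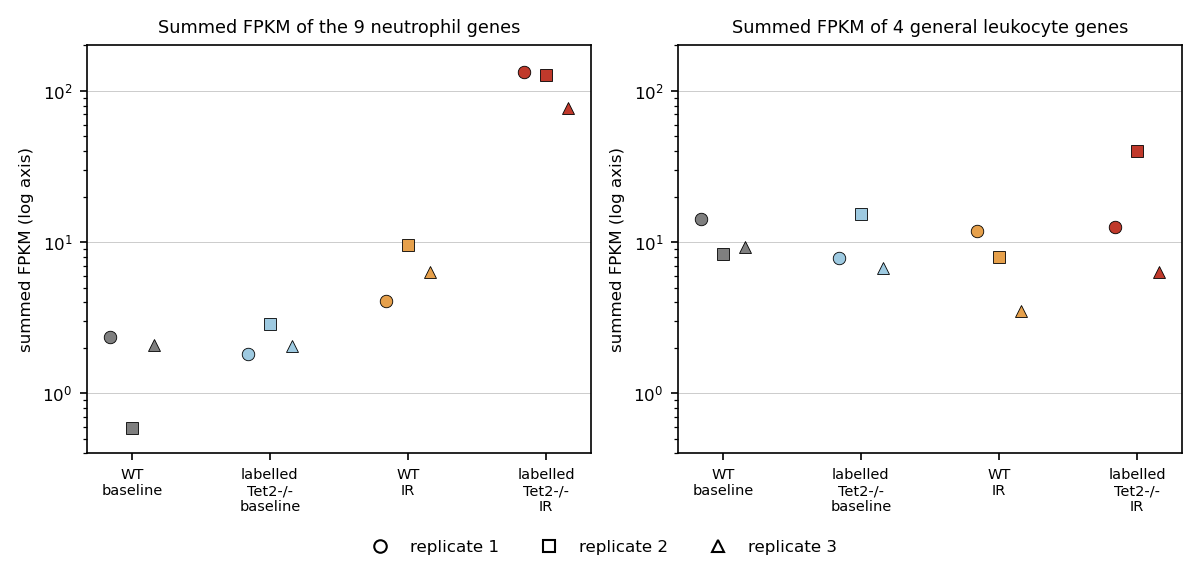
Summed FPKM of the 9 neutrophil genes (left) and of 4 general leukocyte genes (right) in each library, on log axes with the same range. The left sums read 76.8 to 134 in IR kidneys labelled Tet2-/- and at most 9.53 elsewhere, while the right sums of those kidneys, 6.39 to 40.2, overlap the other groups.

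Of 12 macrophage and monocyte genes, 1 was called higher after IR, Cd14 (2.08, SE 0.43, edgeR adjusted p = 0.0313), and the class summed to 34.97 to 69.4 FPKM in WT and 66.6 to 138 in libraries labelled Tet2-/-. Of 6 tested red blood cell genes 0 were higher and Slc4a1 was lower, with sums of 35.2 to 254 and 224 to 251. Of 6 platelet genes Ppbp was higher and Itga2b lower, with sums of 2.61 to 5.42 and 5.07 to 12.2. Lymphocyte genes summed to 0.253 to 0.606 and 0.181 to 1.46, with 0 of 5 called. Squamous epithelium, another source of calprotectin, gave 0 of 4 called after IR, with sums of 6.29 to 14.7 and 8.61 to 12.2. In kidneys labelled Tet2-/- 2 of these 4 were called against baseline: IR raised Krt5 by 3.71 (SE 0.58, edgeR adjusted p = 0.00215) and Krt14 by 3.64 (SE 0.58, edgeR adjusted p = 0.00227). Trp63 differed by 0.82 (edgeR adjusted p = 0.208) and Krt10 by −0.71, under the size needed for a call (edgeR adjusted p = 0.0351), and Krt1 and Krt6a could not be tested. The IR effect on Krt5 differed between genotypes by 3.21 (SE 0.81, edgeR adjusted p = 0.0346), and those on Krt14 (1.97, edgeR adjusted p = 0.116), Trp63 (1.24, 0.234) and Krt10 (−0.41, 0.358) did not pass the threshold. Krt5 read 1.57, 5.63 and 3.75 FPKM in WT baseline libraries and 0.649, 0.129 and 0.266 in baseline libraries labelled Tet2-/-. In kidneys labelled Tet2-/- IR also raised Cd14 (4.56) and Cd68 (3.46) and lowered Csf1r (−2.69) among macrophage genes, and raised 3 of 6 platelet genes and lowered 1, Itga2b. In WT kidneys Cd68 and Cd14 rose as well (2.88 and 2.25). Mast cell, basophil and eosinophil genes summed to 0.088 FPKM or less in every IR library, and none could be tested. The kidney markers Slc34a1 and Lrp2 were lower after IR in kidneys labelled Tet2-/- (log2 differences −1.74 and −1.81). The part of these cells, and of the lower tubule markers, in the members' difference was not tested.

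The genes most like calprotectin in pattern were ranked by Pearson's r between their log2 level and the mean of S100a8 and S100a9 over the libraries, among 12882 genes, as a description of libraries that share their groups. Over all 12 libraries the highest was Srgap2 (r = 0.976), and the moesin gene Msn (r = 0.971), Wfdc21 (r = 0.969) and the cystine transporter Slc7a11 (r = 0.967) were among the first 10. Over the 6 IR libraries Slc7a11 came first (r = 0.998) and Mmp8 was also among the first 10 (r = 0.992). Most of the genes in these lists differed far less in size than the members: Srgap2 averaged 2.57 FPKM in WT IR kidneys and 3.44 in those labelled Tet2-/-, against 0.0937 and 2.10 for Wfdc21.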

How the data were processed

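RNA-seq reads were aligned to mm9 with STAR and counted on RefSeq transcripts with HOMER by the authors, versions not given in the sources used here. The authors deposited read counts, without normalization, and FPKM of the same transcripts. The deposited counts run in steps of 0.5 and 38.7% were not whole, so for the tests they were handled like expected counts and rounded before testing. The files held 34600 transcripts of 24421 symbols, and for 5569 symbols with several transcripts the one with the highest total was used; no sample column was left unmapped (0).

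Groups were compared with edgeR 4.0.16 (TMM scaling, filterByExpr, quasi-likelihood F test) in R 4.3.3, each pair of groups in its own fit and the interaction over 12 libraries, and p-values were adjusted by Benjamini-Hochberg across every tested gene. Calls needed an adjusted p below 0.05 and an absolute log2 difference above 1 (for the interaction, the adjusted p only). The standard error is the log2 fold change over the square root of F. A fold against libraries of at most 3 counts is a lower bound against 3 counts each, and covers counting error only. DESeq2 1.42.0, limma 3.58.1 on log2(FPKM + 1) and log2(FPKM + 0.1), other scaling and filters, and leaving out each library were alternatives. Transcripts were compared with BLAST 2.17.0. The tests were tested on simulated data first.

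Replicate numbers 1 to 3 recur in each group. Same-numbered baseline and IR libraries deviated together (r from 0.344 to 0.349 in WT and from 0.120 to 0.350 in kidneys labelled Tet2-/-). The numbers may therefore pair these libraries, which comes from the correlations alone. The main fits held no block, so their IR effects are not paired tests, and the replicate block was run as an alternative. The genes named are the 9 members, the called or largest of a list of 43 neutrophil genes with Ly6g, Mpo and Elane in any case, and the 10 genes most like calprotectin. Cxcl1, Cxcl3, 2010005H15Rik, Pecam1 and single marker genes of other cell types were named after their values were seen. The members and all lists were chosen with earlier results of these data known.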

Additional observations from a re-analysis of the deposited data

Results flagged for a closer look

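For 3 members and 6 related genes the interaction test over 12 libraries in edgeR passed the threshold; Cxcr2 and Gm5483 among them were tested through their high group. The difference between the effects, on the log2 scale, was 3.70 for S100a8, 3.41 for S100a9 and 4.43 for Cxcr2, which reached the count filter through the high IR group labelled Tet2-/-. Among the related genes it was 2.99 for Lcn2 (SE 0.83, edgeR adjusted p = 0.0463), 3.52 for Mmp9 (SE 0.98, adjusted p = 0.0466) and 3.88 for Fpr2 (SE 0.80, adjusted p = 0.0158). It was 5.25 for Il1r2 (SE 0.64, edgeR adjusted p = 0.00381), 6.03 for Gm5483 (SE 1.45, adjusted p = 0.0292) and 2.67 for Tlr4, the calprotectin receptor (SE 0.69, adjusted p = 0.0370). In each the effect was higher in kidneys labelled Tet2-/-. The S100a9 value kept its call in 5 of the 12 fits that left out a library and lost it with the replicate block (edgeR adjusted p = 0.0552). Gm5483 was under the count filter in WT kidneys with and without IR and in the baseline comparison, and had at most 1 count in each baseline library labelled Tet2-/-. It was therefore tested through its high group alone, which had to differ, and its fitted size is not a measured fold.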

How the results depend on the processing

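Of 573 values of single members under other settings, 505 kept their direction and side of the threshold, 45 lost the call, 21 gained one and 2 changed sign: at baseline, with a library left out, the log2 difference ran from −0.078 to 0.57 for S100a8 and from −0.029 to 0.97 for S100a9, both negative only without WT baseline replicate 2. After IR, 9 members were called, 5 with genes kept by a mean FPKM of 1, which tests fewer members, 4 by limma on log2(FPKM + 1), and 5 to 7 with a library left out. For the IR effect in WT kidneys, 1 was called, 4 by DESeq2, 3 with all 12 libraries in 1 fit, 0 under the mean FPKM filter and 0 to 1 with a library left out. For the IR effect in kidneys labelled Tet2-/-, 9 were called, 5 under the mean FPKM filter, 5 by limma on log2(FPKM + 1) and 8 to 9 with a library left out. For the interaction, 3 were called, 6 by DESeq2, 8 and 7 by limma with pseudocounts of 1 and 0.1, and 2 to 4 with a library left out. At baseline 0 were called in every setting run. Apart from the mean FPKM filter, the cause of these moves was not tested. Genes called higher after IR ran from 65 to 838 and lower from 229 to 909 over the settings; in WT kidneys from 41 to 541 and 37 to 559; in kidneys labelled Tet2-/- from 1440 to 2860 and 816 to 2069; at baseline from 2 to 24 and 0 to 326; for the interaction from 147 to 1222 and 485 to 1593.

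WT and labelled Tet2-/- libraries of the same number did not deviate together in every pair (r from −0.173 to 0.0524 at baseline and from −0.000229 to 0.303 after IR), so they share only a number. With the replicate block, 8 members were called after IR (Ngp edgeR adjusted p = 0.06), and beside the interaction values given above the block changed no other member's call. Counts of at most 10 per library in WT kidneys limit what can be said of Ngp, Stfa2l1 and Cd177.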
